A study of Mus musculus with 12 samples.

Results

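The 10 genes described here encode proteins of the Z-disc, the structure that borders each sarcomere of striated muscle, together with proteins at or near it that take part in sensing stretch. They are the alpha-actinins *Actn2* and *Actn3*, *Myot*, the PDZ-LIM genes *Ldb3*, *Pdlim3* and *Pdlim5*, *Tcap*, *Csrp3*, and the muscle ankyrin repeat genes *Ankrd1* and *Ankrd2*. They were chosen by name for their known place in the muscle fibre, and their mouse symbols were matched to the Ensembl identifiers of the count table. All 10 were found among its 55450 genes. RNA had been sequenced from tibialis anterior (TA) muscle of wild-type (WT) mice on the 129Pas background at 3 ages, namely E18.5, 2 wks and 7 wks (4 mice per age, 12 libraries in all). The name 129Pas is that of the labels, and the paper writes 129SvPas. No mouse carried an engineered allele or received an agent. Age is the variable that the labels give, and the sex, litter and batch of the mice are not given in the sources used here. The muscle pieces were extracted whole, and fewer cells of a type and less RNA per cell cannot be told apart in such samples.

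In the Z-disc, alpha-actinin cross-links the thin filaments of neighbouring sarcomeres and binds titin, the spring-like protein that spans from Z-disc to M-band. PDZ-LIM proteins, myotilin and telethonin dock on this lattice and hold its parts together. Muscle LIM protein and the muscle ankyrin repeat proteins are known to be induced by mechanical load or injury and to move between the sarcomere and the nucleus.

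Library totals ran from 63018968 to 123449246 counts, and the member with the fewest reads still had 447 in its lowest library, so the spread between mice, not the counting of reads, sets the errors below. The 8 skeletal muscle fibre markers (*Acta1*, *Ckm*, *Mb*, *Des*, *Ttn*, *Ryr1*, *Casq1* and *Tnnt3*) were detected in every library, and their summed level ranged over 9655–17870 CPM at E18.5, 96770–128200 CPM at 2 wks and 110900–153900 CPM at 7 wks. CPM here stands for read counts per 1000000 counts of a library, after scaling with the trimmed mean of M values (TMM). Markers of other tissues moved with age as well. The 6 fibroblast markers summed to 5963 to 12270 CPM at E18.5 and 971 to 4080 at 7 wks, the 5 adipocyte markers to 12.6 to 429 and 1.95 to 4.65, and the 6 cartilage and bone markers to 25.0 to 144 and 1.58 to 2.91, with *Matn1* at 0 at 2 and 7 wks. The part of this change in makeup in the results was not tested. The TMM factors (1.62–1.77 at E18.5, 0.81–0.95 at 2 wks, 0.667–0.699 at 7 wks) shifted the median gene upwards relative to scaling by the total count, by 0.93 on the log2 scale between E18.5 and 2 wks, 0.35 between 2 and 7 wks and 1.28 over the whole span.

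Between E18.5 and 2 wks, 7 of the 10 Z-disc genes rose and none fell (0 of 10, also at an unadjusted p of 0.05 and with DESeq2) at a Benjamini-Hochberg adjusted p of 0.05 in the quasi-likelihood test of edgeR. Of all 19276 genes tested, 65.7% passed that test in this comparison, 31.5% higher and 34.2% lower. On the log2 scale the 10 genes had a median change of 1.62, beside -0.09 for all genes. Between 2 and 7 wks only *Myot* and *Pdlim5* rose and again none fell (0 of 10 also at an unadjusted p of 0.05 and with DESeq2), where 27.5% of all genes passed, 13.5% higher and 13.9% lower. Over the whole span to 7 wks 8 rose, where 71.4% of all genes passed, 34.3% higher and 37.1% lower. The libraries of 2 ages did not overlap at all for 6 members between E18.5 and 2 wks (61.3% of all genes), for 2 between 2 and 7 wks (33.7%) and for 8 between E18.5 and 7 wks (63.4%). Scaled to the total count instead, 5 rose and 1, *Pdlim5*, fell by 2 wks and 4 rose over the whole span, so the directions below are relative to the typical gene. With that scaling the median of all genes was -1.02 by 2 wks and -1.365 over the whole span. The shares of all genes given above are those with TMM scaling. As a share of all counts, which is the same total-count scale, the 10 genes together took 0.559, 0.598, 0.383 and 0.454% at E18.5, 1.01, 1.01, 1.38 and 1.55% at 2 wks, and 1.15, 1.24, 1.42 and 1.26% at 7 wks, with no overlap between E18.5 and the later ages.

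**Figure D1:**
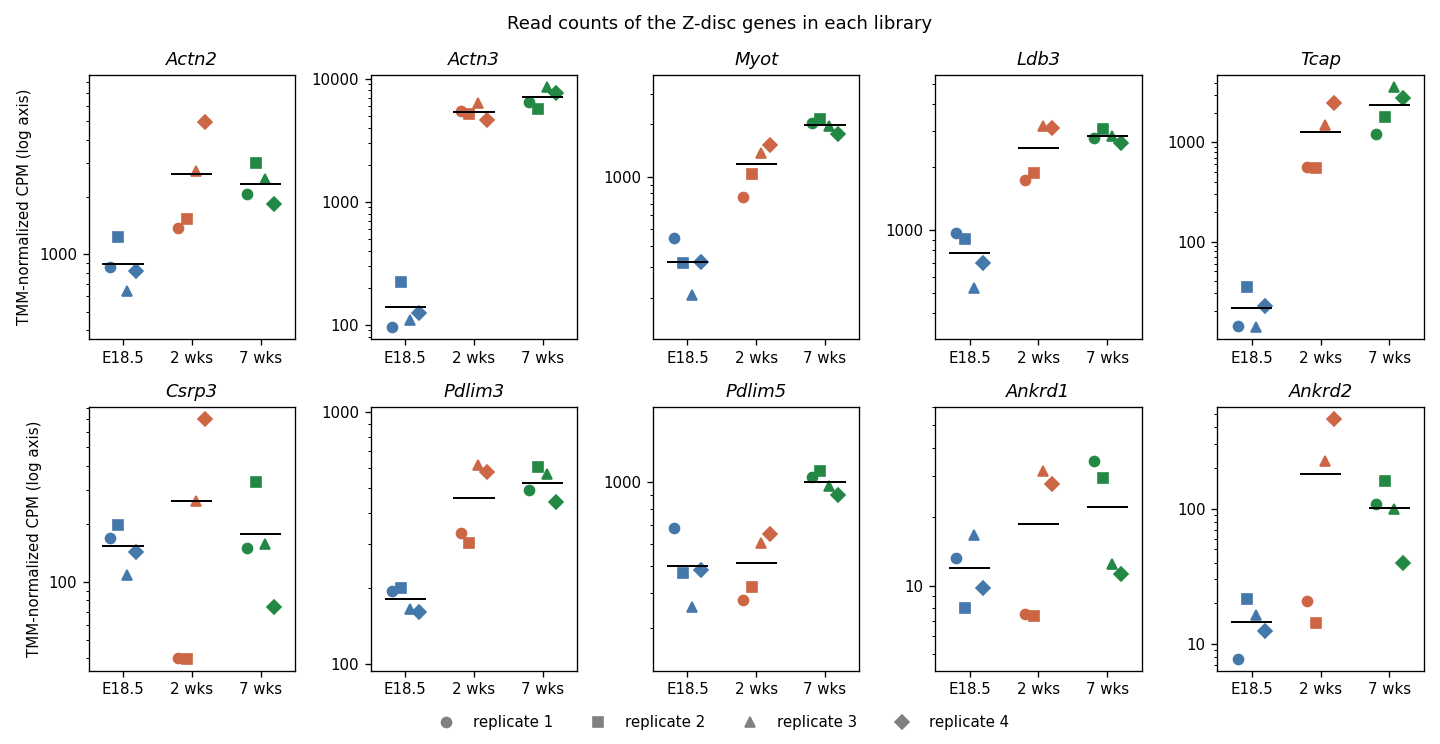
TMM-scaled CPM (log axis) of each of the 10 Z-disc genes in the 12 libraries, by age; marker shapes give the replicate number and black lines the mean of 4. *Actn3* and *Tcap* lie far above their E18.5 libraries at both later ages, while the 2-wk libraries of *Csrp3* and *Ankrd2* spread from 39.8 to 703 and from 14.3 to 459 CPM.

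**Figure D2:**
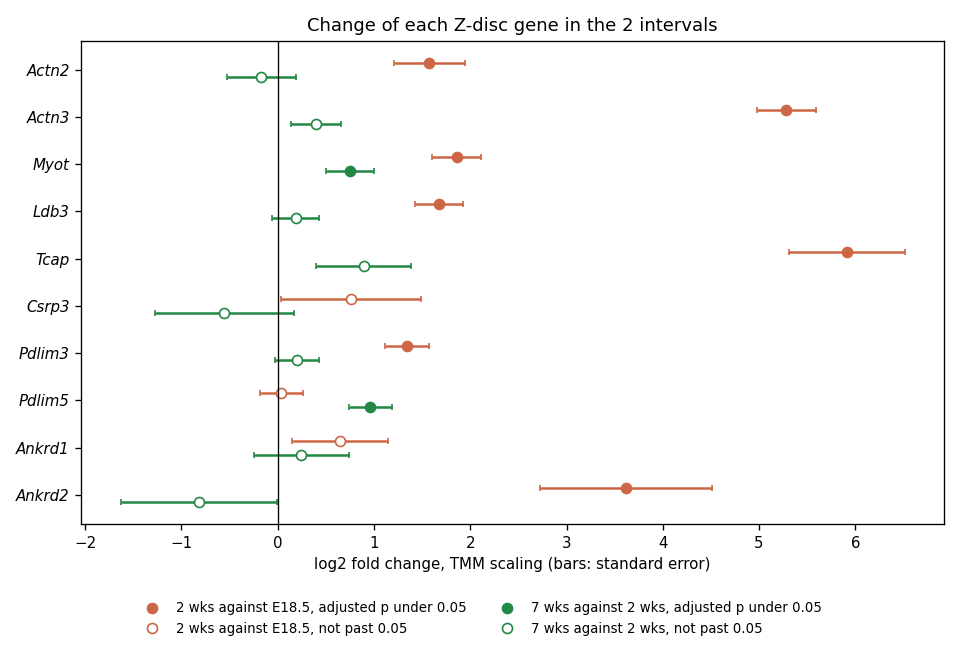
Fold change (log2) of each gene between E18.5 and 2 wks and between 2 and 7 wks, with the standard error as bars; filled points passed edgeR's test at an adjusted p of 0.05 and open points did not. The largest values are *Tcap* at 5.91 and *Actn3* at 5.29 in the first interval, and *Myot* and *Pdlim5* are the only filled points of the second.

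Of the alpha-actinins, *Actn2* (ENSMUSG00000052374, chromosome 13, 12269426 to 12340732 on GRCm38.p6) encodes the form found in all skeletal fibres and in the heart, and *Actn3* (ENSMUSG00000006457, chromosome 19, 4861216 to 4877909) the form of fast fibres. *Actn3* was at 96.2, 222, 109 and 125 CPM at E18.5, 5488, 5134, 6279 and 4640 at 2 wks and 6504, 5638, 8570 and 7675 at 7 wks. All later libraries were far above all E18.5 libraries, and those of 2 and 7 wks overlapped. *Actn3* rose 39.0-fold by 2 wks (log2 fold change 5.29, SE 0.31, edgeR adjusted p = 2.45e-08), while its further change to 7 wks was 0.40 (SE 0.26, adjusted p = 0.272). With the trend over GC content removed that later change was 0.64 and passed (adjusted p = 0.0187). *Actn2* was at 859, 1234, 637 and 817 CPM at E18.5, 1378, 1527, 2732 and 4934 at 2 wks and 2069, 3001, 2474 and 1843 at 7 wks. Every 2-wk library exceeded every E18.5 library, although replicates 1 and 2 did so narrowly, and the 7-wk libraries lay within the range of the 2-wk ones. *Actn2* rose 2.98-fold by 2 wks (1.58, SE 0.37, edgeR adjusted p = 0.00182) and had a later change of -0.17 (SE 0.36, adjusted p = 0.755). With total-count scaling its value to 2 wks was 0.61, which did not pass the test (adjusted p = 0.101). Without replicate 4 of 2 wks it was 1.09.

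The make-up of the alpha-actinin pool was compared within each library, where scaling plays no part, as counts per kb of exon. *Actn3* made up 19.3, 27.8, 26.8 and 24.6% of the *Actn2* and *Actn3* sum at E18.5, 89.5, 87.8, 83.1 and 66.8% at 2 wks, and 87.1, 80.1, 88.1 and 89.9% at 7 wks. At E18.5 *Actn2* was the higher in all 4 libraries, and at both later ages *Actn3* was the higher in all 4. The log2 ratio of *Actn3* to *Actn2* went from -1.63 ± 0.31 (SD, n = 4) to 2.31 ± 0.93 (n = 4), a 15.3-fold change with a two-sided exact permutation p of 0.0286, the smallest that 4 against 4 allow, and 0.0572 after adjustment over the 8 ratio tests. Its later change to 2.70 ± 0.49 was not separable from the spread (exact permutation p = 0.571, n = 4). The exons of *Actn3* share 1355 bases with *Ctsf*, a cathepsin gene on the opposite strand. *Ctsf* had 1604 to 3921 counts per library, beside at least 13873 for *Actn3*. The library kit keeps strand, but the strand setting of the counting is not given in the sources used here.

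*Myot* (ENSMUSG00000024471, chromosome 18, 44334053 to 44355740 on GRCm38.p6) encodes myotilin, which binds alpha-actinin and filamin C and bundles actin. *Myot* was at 446, 316, 209 and 323 CPM at E18.5, 765, 1032, 1376 and 1529 at 2 wks and 2037, 2147, 1968 and 1754 at 7 wks. The 3 ages were fully separated, each later age above the one before. *Myot* rose 3.63-fold by 2 wks (1.86, SE 0.25, edgeR adjusted p = 2.76e-05) and by a further 0.75 on the log2 scale by 7 wks (SE 0.25, adjusted p = 0.0372). The second step was close to the threshold, since leaving out replicate 1 of 2 wks gave 0.58 (adjusted p = 0.12), leaving out replicate 2 of 2 wks gave 0.69 (0.101), and leaving out any 1 of the 4 libraries of 7 wks gave 0.71 to 0.80, none of which passed.

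*Ldb3* (ENSMUSG00000021798, chromosome 14, 34526699 to 34590314 on GRCm38.p6) encodes ZASP, also called Cypher, a PDZ protein that binds alpha-actinin and in some isoforms carries LIM domains. *Ldb3* was at 968, 911, 528 and 696 CPM at E18.5, 1744, 1880, 3171 and 3093 at 2 wks and 2751, 3047, 2825 and 2622 at 7 wks. All libraries of 2 and 7 wks stood above those of E18.5, and the 7-wk libraries lay within the 2-wk range. *Ldb3* rose by 1.67 on the log2 scale to 2 wks (SE 0.25, edgeR adjusted p = 5.78e-05), with 0.19 to follow (SE 0.24, adjusted p = 0.603). Among the members it was the most even at 7 wks, with a coefficient of variation of 6.33%, followed by *Myot* at 8.37% and *Pdlim5* at 8.71%.

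*Pdlim3* (ENSMUSG00000031636, chromosome 8, 45885487 to 45919635 on GRCm38.p6) and *Pdlim5* (ENSMUSG00000028273, chromosome 3, 142239585 to 142395719) encode ALP and ENH, PDZ-LIM adaptors that bind alpha-actinin. ENH is also a scaffold for protein kinase C. *Pdlim3* was at 196, 201, 165 and 161 CPM at E18.5, 332, 302, 616 and 580.1 at 2 wks and 490.0, 606, 569 and 439.5 at 7 wks. *Pdlim3* followed the pattern of *Ldb3*, with E18.5 apart from the rest, and rose by 1.34 to 2 wks (SE 0.23, edgeR adjusted p = 0.000184) with 0.20 later (SE 0.23, adjusted p = 0.54). With total-count scaling the first value was 0.39 and did not pass (adjusted p = 0.0921). *Pdlim5* was at 685, 474, 358 and 485 CPM at E18.5, 379, 421, 606 and 652 at 2 wks and 1042, 1099, 968 and 899 at 7 wks. Here the E18.5 and 2-wk libraries overlapped and all 4 libraries of 7 wks lay above both. The *Pdlim5* change to 2 wks was 0.04 (SE 0.22, adjusted p = 0.885) and that to 7 wks 0.96, or 1.95-fold (SE 0.22, adjusted p = 0.00644). The later rise passed the test in all 22 alternatives, at 0.64 or more, whereas the first value depended on scaling and was -0.90 with the total count (adjusted p = 0.000714).

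Within libraries, the ratio of *Pdlim5* to *Pdlim3* per kb dropped and then partly returned. *Pdlim5* was 59.7, 50.0, 48.0 and 56.1% of the sum of both at E18.5, 32.6, 37.1, 29.4 and 32.3% at 2 wks, and 47.4, 43.5, 41.9 and 46.5% at 7 wks. No library of 2 wks reached any library of the other ages. With the longest coding transcript the 2-wk shares, 25.9–33.1%, were again below those of E18.5 (43.6–55.4%) and of 7 wks (37.7–43.05%). The log2 ratio was 0.20 ± 0.32, -1.04 ± 0.21 and -0.30 ± 0.15 (SD, n = 4 each), and each step had an exact permutation p of 0.0286 and an adjusted p of 0.0572. None of the 8 ratio tests (0 of 8) passed 0.05 after adjustment, and 4 of them sat at the smallest p the design allows.

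**Figure D3:**
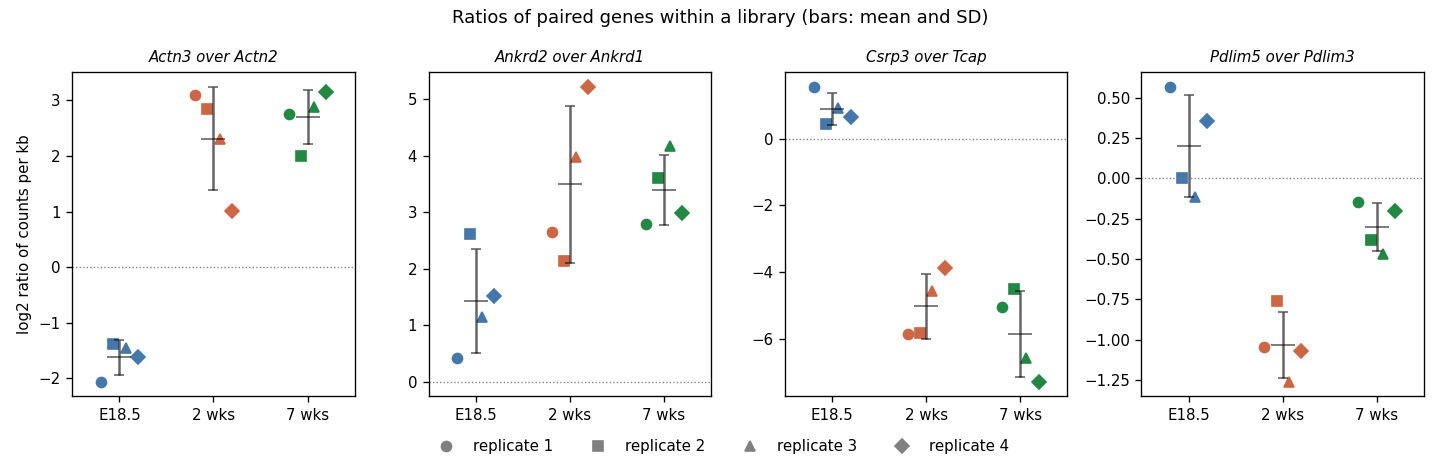
Log2 ratio of counts per kb for 4 pairs of members within each of the 12 libraries, by age, with the mean and SD of 4 libraries; the dotted line marks equal levels. *Actn3* over *Actn2* and *Csrp3* over *Tcap* cross that line between E18.5 and 2 wks, and the *Pdlim5* over *Pdlim3* ratio is lowest at 2 wks.

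*Tcap* (ENSMUSG00000007877, chromosome 11, 98383811 to 98384953 on GRCm38.p6) encodes telethonin, which caps the Z-disc end of titin. *Tcap* was at 14.1, 35.0, 13.8 and 22.3 CPM at E18.5, 563, 553, 1508 and 2491 at 2 wks and 1209, 1821, 3645 and 2817 at 7 wks. The E18.5 libraries were far below all others, and at 2 wks replicates 3 and 4 stood well above replicates 1 and 2. *Tcap* rose 60.1-fold to 2 wks (5.91, SE 0.60, edgeR adjusted p = 2.59e-06), the largest change among the 10 members, and was 112-fold above E18.5 at 7 wks (6.80, SE 0.63, adjusted p = 4.78e-07). The step from 2 to 7 wks was 0.89 (SE 0.49, adjusted p = 0.194), and 1.44 without replicate 4 of 2 wks, which then passed (adjusted p = 0.0435). It also passed with the trend over GC content removed, at 1.35 (adjusted p = 0.0214).

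*Csrp3* (ENSMUSG00000030470, chromosome 7, 48830398 to 48848051 on GRCm38.p6) encodes muscle LIM protein, a partner of telethonin and alpha-actinin that is typical of slow fibres and heart. *Csrp3* was at 169, 197, 108 and 142 CPM at E18.5, 40.2, 39.8, 262 and 703 at 2 wks and 150.5, 330.1, 158 and 74.0 at 7 wks. At 2 wks replicates 1 and 2 fell below every E18.5 library and replicates 3 and 4 lay above every one of them, and the 7-wk libraries spread around the E18.5 range. Neither step passed the test, with 0.76 to 2 wks (SE 0.73, edgeR adjusted p = 0.371) and -0.55 to 7 wks (SE 0.73, adjusted p = 0.604). Without replicate 4 of 2 wks both values changed sign, to -0.42 and 0.64. The 7 slow fibre markers (*Myh7*, *Myl2*, *Myl3*, *Tnnc1*, *Tnni1*, *Tnnt1* and *Atp2a2*) summed to 777 to 1237 CPM at E18.5, to 435, 342, 178 and 220 CPM in replicates 1 to 4 of 2 wks, and to 113 to 168 CPM at 7 wks. The pair of 2-wk libraries that was low in *Csrp3* was the higher in slow fibre markers. The part of fibre type in the spread of *Csrp3* was not tested. The 6 heart markers summed to 166 to 347 CPM at E18.5 and 20.3 to 45.3 at 2 wks.

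Per kb and within a library, *Csrp3* exceeded *Tcap* in all 4 libraries of E18.5, by 2.93, 1.37, 1.91 and 1.56 times. In all later libraries *Tcap* was the higher, by 57.5, 57.0, 23.6 and 14.5 times at 2 wks and by 33.0, 22.6, 94.8 and 156 times at 7 wks. The log2 ratio of *Csrp3* to *Tcap* moved from 0.90 ± 0.48 to -5.03 ± 0.98 (SD, n = 4), a 60.6-fold drop (exact permutation p = 0.0286, adjusted 0.0572), and stood at -5.85 ± 1.30 at 7 wks (exact permutation p = 0.4 for the later step, n = 4). The levels of this ratio depend on the length used, its changes do not. With the longest coding transcript *Csrp3* was 4.56 to 9.71 times *Tcap* at E18.5, and *Tcap* 4.38 to 17.3 times *Csrp3* at 2 wks and 6.82 to 47.1 times at 7 wks.

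*Ankrd1* (ENSMUSG00000024803, chromosome 19, 36111965 to 36119844 on GRCm38.p6) and *Ankrd2* (ENSMUSG00000025172, chromosome 19, 42035917 to 42045111) encode CARP and Arpp, muscle ankyrin repeat proteins that bind titin in the I-band and are known to rise after stretch or injury. *Ankrd2* was at 7.80, 21.7, 16.4 and 12.5 CPM at E18.5, 20.9, 14.3, 223 and 459 at 2 wks and 108, 159, 99.3 and 39.8 at 7 wks. At 2 wks replicates 1 and 2 lay within the E18.5 range and replicates 3 and 4 were the highest of the 12 libraries. *Ankrd2* rose 12.3-fold on the fitted mean (3.62, SE 0.89, edgeR adjusted p = 0.00275), although the libraries overlapped and the later one was higher in 13 of 16 pairs. Without replicate 4 of 2 wks the value was 2.57 (adjusted p = 0.0119). The 7-wk libraries were all above E18.5 (2.80, SE 0.86, adjusted p = 0.00974, with 1.51 and an adjusted p of 0.0903 under total-count scaling), and their change from 2 wks was -0.82 (SE 0.81, adjusted p = 0.478).

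*Ankrd1* was at 13.1, 7.96, 16.6 and 9.75 CPM at E18.5, 7.498, 7.34, 31.7 and 27.8 at 2 wks and 34.9, 29.4, 12.4 and 11.3 at 7 wks. At 2 wks replicates 3 and 4 were above every E18.5 library and replicates 1 and 2 just below every one, and at 7 wks replicates 1 and 2 were high and replicates 3 and 4 within the E18.5 range. No *Ankrd1* comparison passed the test, with 0.65 to 2 wks (SE 0.50, edgeR adjusted p = 0.262), 0.24 to 7 wks (SE 0.49, adjusted p = 0.748) and 0.89 from E18.5 to 7 wks (SE 0.50, adjusted p = 0.122). Per kb, *Ankrd2* exceeded *Ankrd1* in all 12 libraries, by 1.33 to 6.11 times at E18.5, 4.38 to 37.1 times at 2 wks and 6.93 to 17.9 times at 7 wks. With the longest coding transcript it did so in 11 of 12, with 0.952 to 4.36 times at E18.5. The change of the log2 ratio to 2 wks was 2.07 (exact permutation p = 0.0571, n = 4, adjusted 0.0914), with the later library higher in 15 of 16 pairs.

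Promoter sequences are shown for *Csrp3*, *Ankrd2* and *Ankrd1*, among the members whose 2-wk libraries differed most, and for *Pdlim3* and *Ldb3*, whose 2-wk libraries differed in the same direction. The 2-wk libraries of *Actn2* and *Pdlim5* did so too, but their windows are not printed. The printed windows were chosen after the values were seen. Each runs 5′ to 3′ on the gene's strand from 250 bases before to 50 bases after the RefSeq start on GRCm38.p6, and positions are counted from that start. *Ldb3* and *Csrp3* have a second listed window, for a start farther downstream, and the more upstream of the listed windows is printed. The *Ldb3* gene itself extends farther upstream than that window, to 34590314. Capitals mark E-boxes (CANNTG, the motif bound by MyoD-type factors), M-CAT (CATTCC, bound by TEAD factors, GGAATG where it lies on the opposite strand), the CArG box (bound by serum response factor) and TATAAA, searched on both strands.
*Ankrd1*, chr19:36119795-36120094, minus strand: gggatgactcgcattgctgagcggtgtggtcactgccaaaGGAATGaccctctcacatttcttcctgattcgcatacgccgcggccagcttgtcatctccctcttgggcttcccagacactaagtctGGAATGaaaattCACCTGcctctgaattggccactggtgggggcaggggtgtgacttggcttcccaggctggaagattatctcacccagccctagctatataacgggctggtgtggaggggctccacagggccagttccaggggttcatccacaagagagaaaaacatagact
*Ankrd2*, chr19:42035777-42036076, plus strand: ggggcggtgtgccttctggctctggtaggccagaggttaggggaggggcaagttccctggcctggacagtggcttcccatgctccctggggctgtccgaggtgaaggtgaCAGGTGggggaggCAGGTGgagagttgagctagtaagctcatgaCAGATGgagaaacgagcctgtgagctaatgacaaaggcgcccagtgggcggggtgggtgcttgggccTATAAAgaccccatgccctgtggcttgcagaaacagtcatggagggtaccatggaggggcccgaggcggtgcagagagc
*Csrp3*, chr7:48848002-48848301, minus strand: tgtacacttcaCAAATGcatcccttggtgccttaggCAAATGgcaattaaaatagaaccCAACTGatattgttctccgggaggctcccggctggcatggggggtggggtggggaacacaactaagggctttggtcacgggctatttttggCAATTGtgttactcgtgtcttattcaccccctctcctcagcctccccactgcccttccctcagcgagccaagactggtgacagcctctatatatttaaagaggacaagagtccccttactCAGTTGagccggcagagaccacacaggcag
*Pdlim3*, chr8:45885237-45885536, plus strand: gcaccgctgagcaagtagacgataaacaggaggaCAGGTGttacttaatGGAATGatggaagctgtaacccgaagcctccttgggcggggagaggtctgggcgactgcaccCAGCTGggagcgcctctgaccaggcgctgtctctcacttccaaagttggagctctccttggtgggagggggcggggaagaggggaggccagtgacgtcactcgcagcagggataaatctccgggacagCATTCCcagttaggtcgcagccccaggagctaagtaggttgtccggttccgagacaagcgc
*Ldb3*, chr14:34588632-34588931, minus strand: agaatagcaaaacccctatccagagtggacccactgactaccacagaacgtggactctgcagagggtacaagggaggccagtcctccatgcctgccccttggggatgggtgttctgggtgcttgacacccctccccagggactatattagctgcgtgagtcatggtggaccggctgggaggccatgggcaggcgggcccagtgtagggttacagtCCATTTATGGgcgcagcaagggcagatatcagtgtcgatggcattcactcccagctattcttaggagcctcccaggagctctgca
The *Ankrd1* window held 2 M-CAT matches, with first bases at -210 and -123, and that of *Pdlim3* held 2, at -201 and -11, a motif found in 14.7% of 32851 promoter windows of the same length. The *Ldb3* window held a CArG box from -35 to -26, found in 1.63% of windows, and from the downstream start the same box lies at -109 to -100. The *Ankrd2* window held 3 E-boxes and a TATAAA at -29, and the *Csrp3* window 5 E-boxes (4 others in the window of its downstream start), beside 72.3% of windows with an E-box and 13.6% with TATAAA. The MEF2 motif, found in 3.19% of windows, had 0 matches in the 10 windows listed for 7 of the members. In those windows M-CAT was matched only for *Ankrd1* and *Pdlim3*, and the CArG box only for *Ldb3*. The windows of *Actn2* and *Pdlim5* held 0 matches of either, so these motifs were not shared by the genes that split at 2 wks. A match is a description of the letters, not a site of binding.

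The 2-wk libraries fell into 2 pairs for most members. Replicates 3 and 4 both lay above replicates 1 and 2 in 9 of the 10 genes (90.0%), in 16 of 29 other Z-disc genes (55.2%) and in 26.9% of the 19276 genes tested, and both lay below them in 0, 5 and 25.3%. *Actn3* was the member that did not follow, with 5488, 5134, 6279 and 4640 CPM. As coefficients of variation at 2 wks, *Csrp3* had 119.7%, *Ankrd2* 117%, *Tcap* 72.2%, *Ankrd1* 69.9% and *Actn2* 62.2%, whereas *Actn3* had 12.8%. Summed skeletal muscle fibre markers were 96770, 97250, 116800 and 128200 CPM in replicates 1 to 4 of 2 wks, summed smooth muscle markers 1016, 787, 489 and 580 CPM, and summed red blood cell markers 459, 719.5, 138 and 139 CPM. These sums all split along the same pairs, with replicates 1 and 2 the higher for smooth muscle and red blood cells. So did those of slow fibre, heart, epidermis and Schwann cell markers, which were also higher in replicates 1 and 2. The cartilage and bone sums split as well, with replicates 3 and 4 the higher. Those of fibroblast and adipocyte markers did not split this way. The part of these differences in the split was not tested, and no label names a batch.

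**Figure D4:**
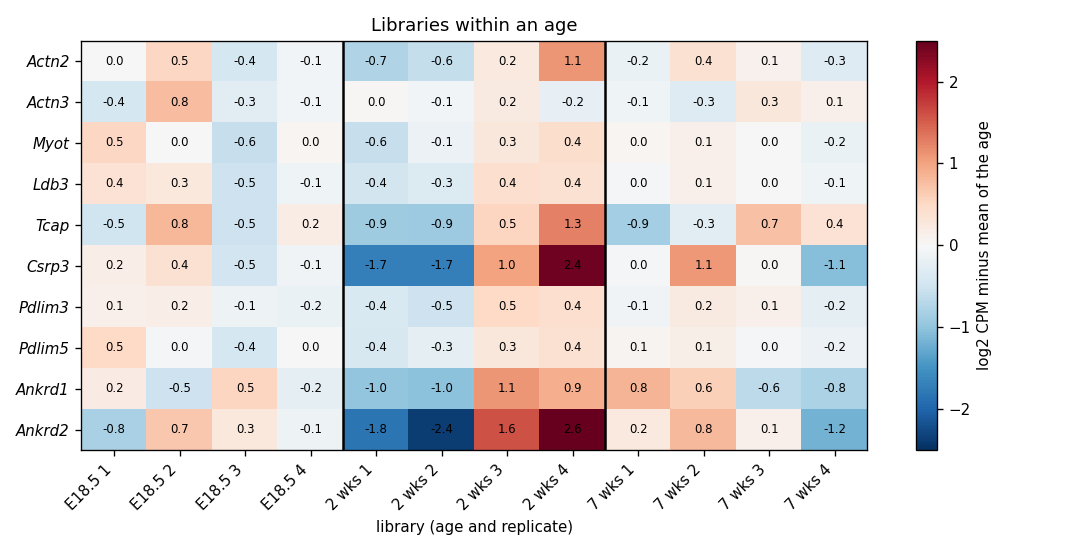
Deviation of each member in each of the 12 libraries from the mean of its age, as log2 CPM (colour and printed values). At 2 wks, replicates 1 and 2 are below 0 and replicates 3 and 4 above 0 for every gene but *Actn3*.

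The 2 intervals share the 2-wk libraries, so they were compared in a contrast of their own, the change from 2 to 7 wks minus that from E18.5 to 2 wks. This difference was below 0 for 7 members and above 0 for none (0 of 10) at an adjusted p of 0.05 in edgeR, while *Pdlim5* was above 0 at an unadjusted p of 0.0326 and with DESeq2, beside 38.4% of all genes past that test, 16.8% higher and 21.6% lower. It was largest for *Tcap* (-5.02, adjusted p = 0.000573) and *Actn3* (-4.89, adjusted p = 4.97e-06), whose calls held in all 21 alternatives. For *Ankrd2* it was -4.44 (adjusted p = 0.0193) and for *Ldb3* -1.49 (adjusted p = 0.0125). *Actn2* (-1.75, adjusted p = 0.0347), *Pdlim3* (-1.14, adjusted p = 0.0318) and *Myot* (-1.11, adjusted p = 0.0493) were nearer to the threshold, and their calls were lost in 10, 9 and 17 of the 21 alternatives. That of *Myot* was lost with each of the 4 other scalings and both other filters in edgeR, and when any of 10 of the 12 libraries was left out. Leaving out replicate 4 of 2 wks left 2 of the 7 calls (*Actn3* and *Tcap*), with -2.34 for *Ankrd2* and -0.77 for *Actn2*, and leaving out replicate 3 of 2 wks left 3. Without replicate 3 or 4 of E18.5, or without replicate 1 or 4 of 7 wks, 4 calls were left. *Pdlim5* had the opposite sign at 0.92 (adjusted p = 0.0749), and passed only without replicate 3 of E18.5 (1.06), with DESeq2 (0.97) or with total-count scaling (1.54). Differences for *Csrp3* (-1.32, adjusted p = 0.416) and *Ankrd1* (-0.40, adjusted p = 0.731) did not pass.

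Levels were ordered among genes as CPM per kb of exon. At E18.5 *Actn2* led with 82.1 ± 23.2 (SD, n = 4), followed by *Ldb3* at 74.6, *Myot* at 46.5, *Pdlim5* at 39.7, *Csrp3* at 39.6, *Pdlim3* at 33.8, *Actn3* at 27.3, *Tcap* at 22.5, *Ankrd2* at 10.98 and *Ankrd1* at 3.98. Of these neighbours only *Ankrd2* and *Ankrd1* did not overlap. At 2 wks *Tcap* (1349 ± 975) and *Actn3* (1066 ± 137) stood on top and overlapped each other, *Actn3* was clear of *Actn2* at 245 and *Pdlim5* at 40.8 was clear of *Ankrd1* at 6.23, and all other neighbours overlapped. At 7 wks the order began with *Tcap* (2503 ± 1136), *Actn3* (1405 ± 255), *Myot* (284), *Ldb3* (270.4) and *Actn2* (217) and ended with *Ankrd2* (76.3), *Csrp3* (45.8) and *Ankrd1* (7.38). The gaps from *Actn3* to *Myot*, from *Actn2* to *Pdlim3* at 98.4 and from *Csrp3* to *Ankrd1* were free of overlap. The order depends on the length used. With the longest coding transcript in place of all annotated exons, *Csrp3* (1172 against 3889 nt) moved from rank 5 to rank 2 at E18.5 and *Myot* from 3 to 6.

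A list of 29 other genes of the Z-disc and its LIM and stretch-responsive proteins gave the surroundings of the members. From E18.5 to 2 wks 21 of the 29 rose and 2 fell, with a median of 1.41, beside 31.5% higher and 34.2% lower of all genes. From 2 to 7 wks 6 rose and 8 fell, with a median of 0.15, beside 13.5% and 13.9%. With total-count scaling the first split was 12 higher and 7 lower and the second 2 and 10. The medians of the list were then 0.47 and -0.19, beside -1.02 and -0.38 for all genes. The shares of all genes given here are those with TMM scaling. In the first interval the 3 largest rises were *Ankrd23*, the third muscle ankyrin repeat gene (5.12, SE 0.44, edgeR adjusted p = 6.26e-07), the myozenin *Myoz3* (3.49, SE 0.25) and *Nrap*, an anchoring protein of young myofibrils (3.32, SE 0.36). *Ankrd23* had 0.367–0.702 CPM at E18.5, then 9.41–30.0 CPM at 2 wks and 16.2–29.4 CPM at 7 wks. The LIM genes *Fhl2* (-1.65) and *Csrp2* (-1.23, adjusted p = 0.000326) were those that fell, and both fell again by 7 wks (-1.25 and -1.54). In the second interval the actin-binding genes *Xirp2* (1.39) and *Nexn* (1.13) and the titin gene *Ttn* (0.92) had the largest rises, and *Pdlim4* (-1.32) completed the largest falls. With total-count scaling these directions were the same, but *Ttn* no longer passed in the second interval (0.58, adjusted p = 0.063).

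Paralogs of the members are given beside them. The non-muscle alpha-actinins changed by -0.02 (*Actn1*, adjusted p = 0.938) and 0.68 (*Actn4*, adjusted p = 0.0209) to 2 wks, and both fell to 7 wks in edgeR's test, with -1.01 (adjusted p = 0.00117) and -0.88 (adjusted p = 0.0142). *Pdlim1*, *Pdlim2* and *Pdlim4* rose to 2 wks (1.51, 1.39 and 0.74) and fell to 7 wks (-0.74, -1.21 and -1.32), whereas neither *Pdlim3* nor *Pdlim5* passed the test as lower with TMM scaling. The 6 smooth muscle markers were also highest at 2 wks, with sums of 489–1016 CPM, beside 272–547 CPM at E18.5 and 309–413 CPM at 7 wks, 4 of them higher to 2 wks and 1 lower to 7 wks. Their part in the values of these paralogs was not tested. *Pdlim7* rose to 2 wks (2.94) and did not pass afterwards (-0.31). With total-count scaling the values to 2 wks of *Actn4* (-0.24), *Pdlim4* (-0.18) and *Pdlim2* (0.47) did not pass. *Csrp1* had 0.37 (adjusted p = 0.0189) and then -0.68 (adjusted p = 0.00165), and the first of these was -0.57 with total-count scaling.

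**Figure D5:**
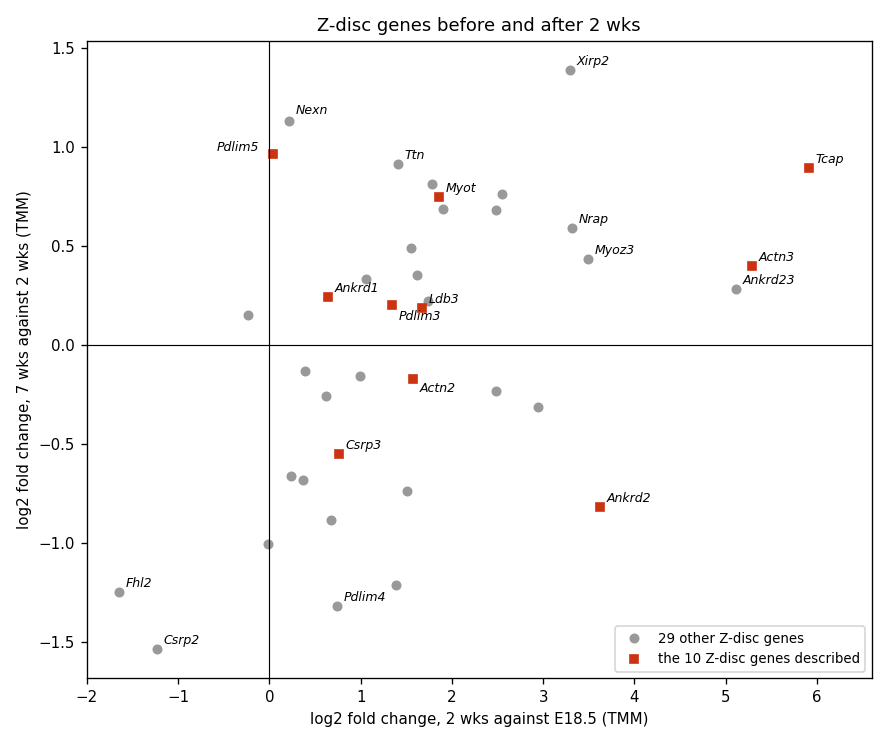
Change to 2 wks against E18.5 (x axis) and to 7 wks against 2 wks (y axis), both as log2 fold change, for the 10 members (squares) and 29 other Z-disc genes (circles); both axes use the same 2-wk libraries, so the points are not independent of each other across axes. *Tcap*, *Actn3* and *Ankrd23* lie farthest to the right, and *Fhl2* and *Csrp2* are low on both axes.

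The genes most like each member over the 12 libraries are given as a description, by Pearson's r of log2(CPM + 0.5) among the 4482 genes whose mean log2 CPM reached 5. The 12 points fall in 3 ages, which sets most of the likeness. *Actn3* was closest to *Atp2a1*, the calcium pump of fast fibres (r = 0.998), and *Sema4d* (0.998), *Tcap* to *Adss1* and *Cltb* (both 0.995), *Myot* to *Gm37829* and *Asb18* (0.995 and 0.994), *Ldb3* to *Dnaja4* and *Cand2* (0.989 and 0.987), *Pdlim5* to *2310002L09Rik* and *Dyrk1a* (0.984 and 0.979), and *Pdlim3* to *Hspb6* and *Nmrk2* (0.979 and 0.978). *Actn2* and *Ankrd2* shared *Lmcd1*, a LIM gene, at 0.971 and 0.952, beside *Mustn1* at 0.975 for *Actn2* and *Flnc* at 0.930 for *Ankrd2*. The least matched were *Ankrd1*, with *Adam17* at 0.786 and *Atf6* at 0.779, and *Csrp3*, with *Thbs4* at 0.773 and *Fhl1* at 0.738. *Lmcd1*, with 92.5, 85.9, 355 and 442 CPM, and *Fhl1*, with 1031, 1279, 3147 and 6059 CPM in replicates 1 to 4 of 2 wks, had replicates 3 and 4 above replicates 1 and 2, as *Csrp3* and *Ankrd2* did, and both genes were picked for their likeness over these same libraries.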

How the data were processed

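RNA of TA muscle from 12 wild-type mice was sequenced after poly(A) selection with a stranded kit. The deposited values are read counts per Ensembl gene, which the authors made, per the labels' processing notes, with bcl2fastq 2.17.1.14, cutadapt 1.10, STAR 2.5.3a and HTSeq 0.6.1p1 on mm10. The paper's methods name GRCm39 with Cufflinks and Cuffdiff for transcripts. The annotation and strand setting of the counting are not given in the sources used here.

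Counts of all 12 libraries were scaled by TMM and fitted together with edgeR 4.0.16 (R 4.3.3, limma 3.58.1, glmQLFit and glmQLFTest) and age was its single term. Genes with low counts were dropped by filterByExpr (minimum count 10), which left 19276 of 55450, and Benjamini-Hochberg adjustment over these used a threshold of 0.05. This count test stands in place of Cuffdiff, which gene counts do not allow. The biological coefficient of variation was 0.279. Library totals were 63018968 to 123449246 counts, and the edgeR p-values set a change between ages against the spread between mice. Ratios within a library used counts per kb of merged exons (GENCODE vM39) and two-sided exact permutation tests over the 70 regroupings of 4 libraries against 4, adjusted over 8 tests. Gene positions and promoter windows are RefSeq's on GRCm38.p6. Windows were listed for 7 of the 10 members. The edgeR test was run on simulated counts with 200 genes changed 2-fold between E18.5 and 2 wks, at a dispersion of 0.05, lower than in these data. It called 122 of the 200, all in the right direction, and 9 unchanged genes, so changes of that size can be missed. Python 3.11.15, pandas 2.3.3 and matplotlib 3.10.9 drew tables and figures.

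The members, gene lists and tests were chosen with earlier results of these data known. Partner genes were named by rule, as the 3 largest rises and falls of each interval among those past the threshold or as paralogs of members, and like genes as the 2 with the highest r. Alternatives were total-count, upper-quartile and RLE scaling, TMM without the 20 most abundant and the mitochondrial genes, DESeq2 1.42.0 as the test, every gene kept or a minimum of 10 counts per library, a block for replicate number, a fit of only the 8 libraries compared, removal of the trend over GC content, each library left out in turn, and for ratios and levels another transcript length.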

Additional observations from a re-analysis of the deposited data

How the results depend on the processing

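A value of a member was counted as kept if it stayed on its side of the threshold, with its direction where either fit passed. For the 10 members 217 of 220 values were kept from E18.5 to 2 wks and 207 of 220 from 2 to 7 wks. From E18.5 to 7 wks 216 of 220 were kept, and for the difference of the intervals 165 of 210. Changes of sign between values that did not pass counted as kept, such as *Csrp3* to 2 wks (0.76, but -0.42 without replicate 4 of 2 wks). Scaling to the total count changed the most. By 2 wks 1 member was then lower, by 7 wks 1 member was higher than at 2 wks and 4 were higher than at E18.5, and the difference was higher for 1 and lower for 3. *Pdlim5* turned to -0.90 by 2 wks and to -0.27 from E18.5 to 7 wks. Of the 29 other Z-disc genes 12 were higher and 7 lower by 2 wks, 2 higher from 2 to 7 wks, and 11 higher and 12 lower from E18.5 to 7 wks. The median of all genes with this scaling was -1.02, -0.38 and -1.365 in the same order. By construction this scaling moves all genes of a comparison by about the same amount. The shift is not exactly common, since the TMM factors also differ between libraries of an age. From 2 to 7 wks, 1 member was higher with upper-quartile scaling and 1 with the replicate block. The difference was lower for 3 members with the replicate block and for 4 with the GC trend removed, and higher for 1 with DESeq2. For these the cause was not tested.

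Leaving out each library in turn gave 1 to 3 members and 3 to 8 of the 29 genes higher from 2 to 7 wks (3 without replicate 1 or 2 of 2 wks), and a difference higher for 0 to 1 and lower for 2 to 7 members. Of all genes, 5296 passed from 2 to 7 wks and 3472 without replicate 1 of 2 wks. Deviations from the age means of same-numbered libraries correlated at -0.118 to 0.258, and 10 of 24 best matches had the same number. This check cannot tell whether same-numbered mice shared a litter or batch, and no label pairs them. The block ended the calls of *Myot* from 2 to 7 wks (adjusted p = 0.0638) and *Actn2*, *Myot*, *Pdlim3* and *Ankrd2* in the difference, and changed no other member's call. The changes of the 4 ratios moved by less than 1 SD in every alternative run, which could not have come out otherwise. Leaving out 1 library of 4 moves a mean by less than 1 SD. Another transcript length shifts every log2 ratio of a pair alike and leaves its changes as they are. The stability of the ratios was therefore not tested by these alternatives.

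With 4 mice per age and a coefficient of variation over 100% for *Csrp3* and *Ankrd2* at 2 wks, spread between mice and not read depth limits these members. The smallest exact permutation p that a ratio test can reach, 0.0286, became 0.0572 once adjusted over 8, with 4 of the tests at that p. The adjusted value depends on how many tests reach it.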
